A study of Mus musculus with 6 samples.

Results

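The 10 genes Cd80, Cd86, Cd40, Icosl, Cd274, Pdcd1lg2, Cd276, Havcr2, Lgals9 and Tnfrsf14, which encode costimulatory and checkpoint molecules, were followed in mammary gland macrophages of tumour-bearing mice. They were taken from the table by symbol alone, with no threshold on a measured value, and each matched 1 row, giving 10 of the 43432 genes in the deposited table. The group is usually called ligands, but Cd40, Havcr2 and Tnfrsf14 encode receptors that sit on the macrophage itself. The cells came from female FVB/N mice carrying MMTV-PyMT, a transgene that expresses the middle T oncogene of polyomavirus in mammary epithelium under the promoter of the mouse mammary tumour virus, at 11 weeks (3 libraries) and at 8 weeks (3 libraries). Both ages carry the transgene, and no gland without it was analysed here. Digested glands were sorted for CD45+, MHCII+ and CD14+ cells, and RNA was sequenced in bulk. The labels number the samples within an age but do not say that each number is a separate animal, so the p-values speak to differences among these samples, and part of their spread may be technical.

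A T cell that meets its antigen on a macrophage reads a second set of signals from the macrophage surface. CD80 and CD86 bind CD28, which supports activation, and CTLA-4, which restrains it; ICOS ligand binds ICOS on activated T cells. PD-L1 and PD-L2, the products of Cd274 and Pdcd1lg2, bind the inhibitory receptor PD-1, and B7-H3, the product of Cd276, is a related surface protein whose receptor is not settled. CD40 receives CD40 ligand from helper T cells and signals through TRAF proteins to NF-kB, HVEM (Tnfrsf14) binds LIGHT, BTLA and CD160, and TIM-3 (Havcr2) is an inhibitory receptor for which galectin-9 (Lgals9) has been described as a ligand.

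No difference between 11 and 8 weeks passed the test for any of the 10 genes. With limma on log2(normalized count + 1), 0 of the 10 had an adjusted p under 0.05, where 0.0507% of the 21675 genes tested did (0.0369% higher and 0.0138% lower at 11 weeks), and 0 of the 10 had an unadjusted p under 0.05, where 8.03% of all genes did. edgeR and DESeq2 on the recovered reads called 0 of the 10 as well, where edgeR called 0.0646% and DESeq2 2.73% of the genes they tested, and in the authors' deposited table none of the 9 with an adjusted p passed, where 1.91% of the genes with an adjusted p did. The log2 fold change (11 minus 8 weeks) was above 0 for 4 and below 0 for 6, with a median of -0.09, against a median of 0.05 over all genes, of which 52.8% were above 0. For 6 of the 10 the 95% confidence interval lay within a 2-fold difference in either direction. In bulk samples, fewer expressing cells and less RNA per cell cannot be told apart.

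**Figure D1:**
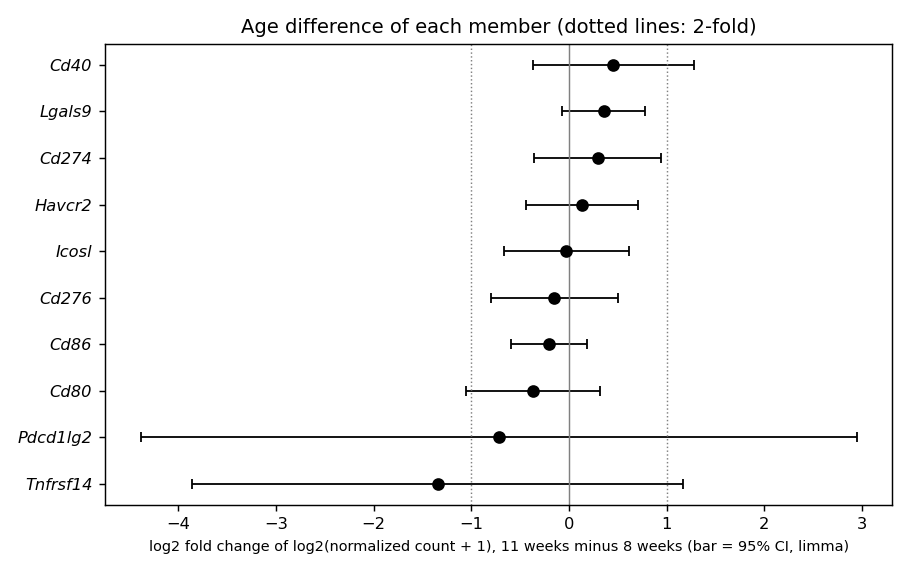
Log2 fold change of log2(normalized count + 1), 11 weeks minus 8 weeks, for each gene, with its 95% confidence interval from limma (3 libraries per age). Every interval spans 0; those of Pdcd1lg2 and Tnfrsf14 run from -4.39 to 2.95 and from -3.86 to 1.17, while that of Cd86 runs from -0.60 to 0.18.

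The genes were at very different levels, which were compared per kilobase of exon so that long and short transcripts stand on one scale. Lgals9 had the highest mean, 5329 ± 1259 normalized counts per kb (SD over the 6 libraries), and Havcr2 the next, 4123 ± 1338 normalized counts per kb. Lgals9 exceeded Havcr2 in 5 of 6 libraries, so these neighbours in the order did not differ beyond their spread. Cd86 followed at 1973 ± 213 normalized counts per kb, below Havcr2 in 6 of 6 libraries, and Cd274 at 594 ± 166 normalized counts per kb, below Cd86 in 6 of 6. These libraries thus held TIM-3 and galectin-9 transcript above the CD28 ligand Cd86, and Cd86 above PD-L1. Cd274 in turn exceeded Cd80 in 6 of 6 libraries, by 1.02-fold to 3.91-fold per kb. Cd80 (323 ± 85.2 normalized counts per kb), Icosl (311 ± 66.5), Cd276 (270 ± 31.2) and Cd40 (259 ± 85.3) then formed a group whose order changed between libraries, with each above the next in 3 or 4 of 6. Tnfrsf14 averaged 158 ± 174 normalized counts per kb, a spread larger than its mean, and was below Cd40 in 4 of 6 libraries. Pdcd1lg2 was near the detection floor at 7.62 ± 8.14 normalized counts per kb.

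Of the summed per-kb level of the 10 genes, Lgals9 and Havcr2 together took 76.4%, 75.6% and 65.0% in the 11-week libraries, against 67.1%, 71.2% and 65.4% in the 8-week libraries. With Cd86 added, the share was 88.5%, 87.0% and 81.2% at 11 weeks and 83.3%, 87.0% and 84.6% at 8 weeks. The ages overlapped in both shares.

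**Figure D2:**
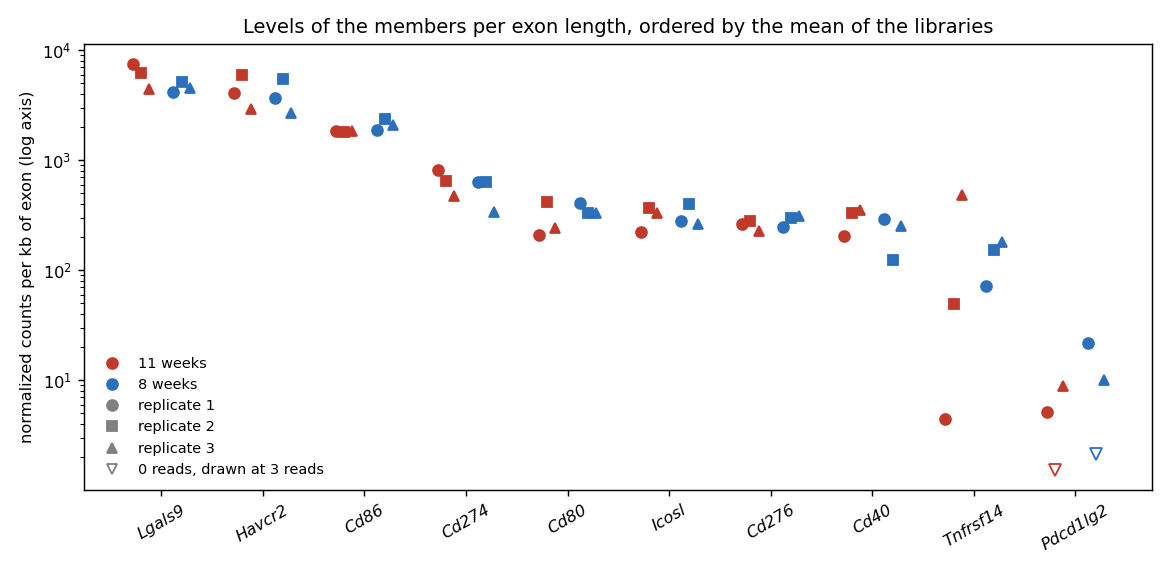
Normalized counts per kb of exon (log axis) for each gene in each library, with 11-week libraries in red and 8-week libraries in blue. Lgals9 and Havcr2 lie above Cd86, Cd86 above Cd274, Cd80, Icosl, Cd276 and Cd40 intermix, and Pdcd1lg2 has 2 libraries without a read, drawn at the level of 3 reads.

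Among the CD28 and CTLA-4 ligands, Cd86 was the more abundant and the steadier. Cd86 (chr16:36603869-36666081, minus strand, GRCm38) had 6721, 6643 and 6715 normalized counts in the 11-week libraries, against 6955, 8595 and 7715 normalized counts in the 8-week libraries. All 3 of the 11-week values lay below all 3 of the 8-week values, which was so of no other of the 10 genes. Over all genes 11.9% had values of the ages that did not overlap, 6.81% with the 11-week values higher and 5.12% with them lower. The Cd86 difference was small, with a log2 fold change of -0.21 (SE 0.18), and did not pass (limma, adjusted p = 0.809). The coefficient of variation of Cd86 was 0.644% within 11 weeks and 10.6% within 8 weeks. That of Cd80 was 38.8% within 11 weeks and 12.5% within 8 weeks, so these genes were close within 8 weeks. The medians were 27.9% within 11 weeks and 25.3% within 8 weeks over the 10726 genes that averaged 100 normalized counts or more. A coefficient from 3 libraries is a rough estimate.

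Cd80 (chr16:38458933-38486933, plus strand) had 777.9, 1545.4 and 887.3 normalized counts at 11 weeks, against 1516.7, 1228.8 and 1229.9 normalized counts at 8 weeks. The 11-week libraries held both the highest value, in replicate 2, and the lowest, in replicate 1, and so enclosed the 8-week values. Its log2 fold change was -0.37 (SE 0.32; limma, adjusted p = 0.809), and the interval from -1.06 to 0.32 leaves room for a 2-fold lower level at 11 weeks. Per kb, Cd86 exceeded Cd80 by 8.74-fold, 4.35-fold and 7.66-fold in the 11-week libraries and by 4.64-fold, 7.08-fold and 6.35-fold in the 8-week libraries. The log2 ratio of Cd80 to Cd86 averaged -2.73 ± 0.53 at 11 weeks and -2.57 ± 0.32 at 8 weeks (SD, n = 3 each; two-sided exact permutation p = 0.6). Adjusted over the 3 ratios tested it was also 0.6, and 3 libraries against 3 cannot give a p below 0.1.

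Icosl, which encodes the ligand of ICOS (chr10:78069360-78079525, plus strand), had the smallest difference of the 10. It had 1034.4, 1707.7 and 1544.4 normalized counts at 11 weeks, against 1293.8, 1831.5 and 1215.4 normalized counts at 8 weeks. The values interleave, and the log2 fold change was -0.03 with an interval from -0.67 to 0.62 (limma, adjusted p = 0.986).

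**Figure D3:**
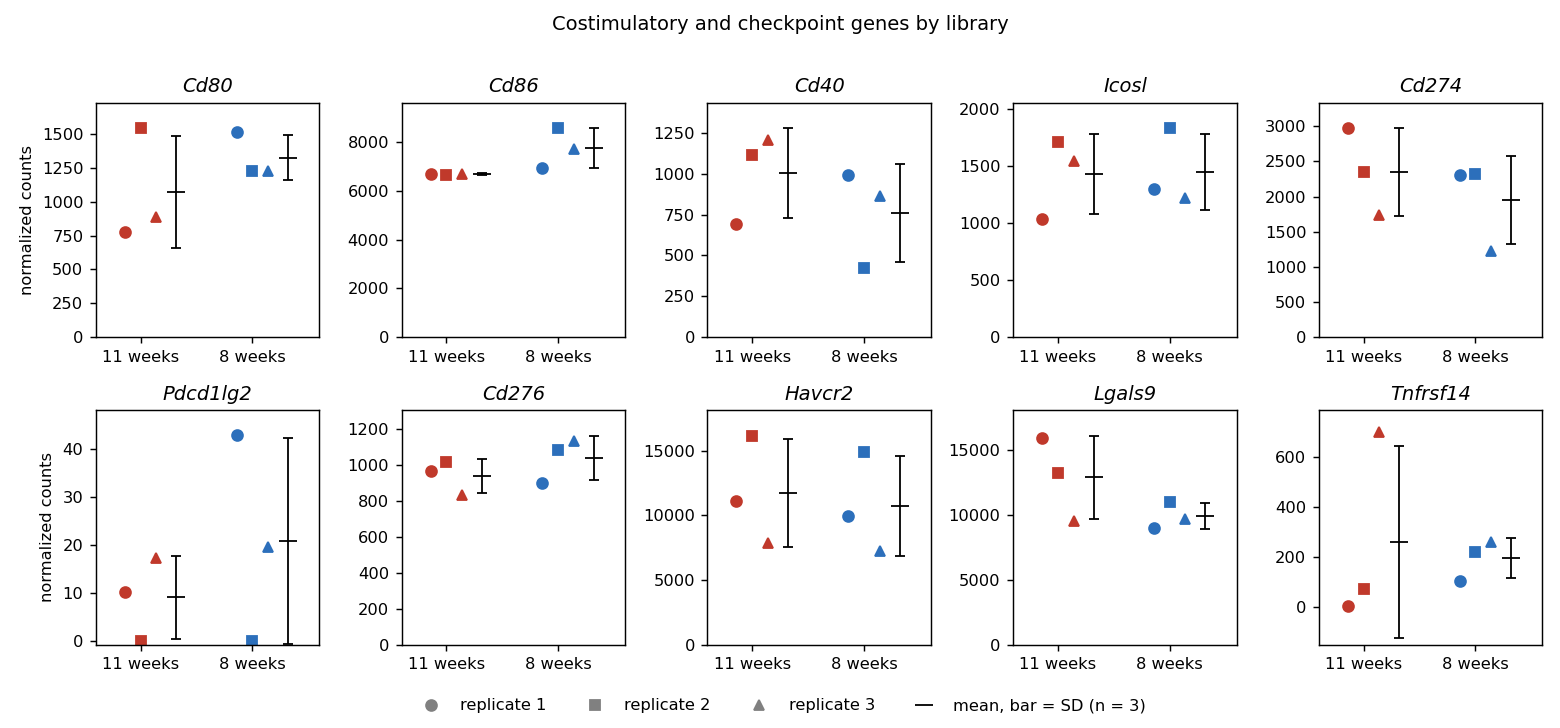
Normalized counts of each gene in each library, 11 weeks in red left of 8 weeks in blue, with the mean and SD (n = 3) beside each age. The ages overlap for every gene but Cd86, and the Tnfrsf14 value of 699.7 in 11-week replicate 3 stands far above the other 2 libraries of its age, at 6.4 and 70.6.

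The PD-1 ligands lie beside each other on chromosome 19, 22823 bases apart, and differed widely in level. Cd274 (PD-L1; chr19:29367455-29388095, plus strand) had 2976.4, 2343.8 and 1730.2 normalized counts at 11 weeks, against 2309.3, 2316.4 and 1221.4 normalized counts at 8 weeks. Replicate 1 of 11 weeks was the highest and replicate 3 of 8 weeks the lowest, and the ages overlapped. The log2 fold change was 0.29 (SE 0.31; limma, adjusted p = 0.825), with an interval from -0.36 to 0.95. Pdcd1lg2 (PD-L2; chr19:29410919-29471157, plus strand) had 11, 0 and 19 reads at 11 weeks, which are 10.1, 0 and 17.2 normalized counts, against 48, 0 and 23 reads at 8 weeks, which are 42.8, 0 and 19.6 normalized counts. One library of each age held no Pdcd1lg2 read, which allows up to 3.02 normalized counts in the 11-week library and 4.16 in the 8-week library (3 reads each, counting error only). Its log2 fold change of -0.72 had an interval from -4.39 to 2.95 (limma, adjusted p = 0.923), an interval that spans large differences in either direction. In the libraries with reads, the per-kb level of Cd274 was 159.6-fold and 54.5-fold that of Pdcd1lg2 at 11 weeks and 29.2-fold and 33.7-fold at 8 weeks; in the others it was at least 420-fold higher at 11 weeks and at least 302-fold higher at 8 weeks. The log2 ratio of Cd274 to Pdcd1lg2, with 1 added to each normalized count, differed by 1.01 between the ages (two-sided exact permutation p = 0.5, adjusted 0.6 over the 3 ratios).

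The promoter windows of this pair are shown because the genes are neighbours with such unequal transcript levels, and that of Lgals9 because it is the most abundant of the 10. Each is the RefSeq window of the GRCm38.p6 build from 250 bases before to 50 bases after the annotated start, written 5′ to 3′ on the gene's strand, with capitals at matches to the 3 motifs searched on both strands. The windows are chr19:29367188-29367487 (plus strand) for Cd274, chr19:29410669-29410968 (plus strand) for Pdcd1lg2 and chr11:78984875-78985174 (minus strand) for Lgals9.
Cd274: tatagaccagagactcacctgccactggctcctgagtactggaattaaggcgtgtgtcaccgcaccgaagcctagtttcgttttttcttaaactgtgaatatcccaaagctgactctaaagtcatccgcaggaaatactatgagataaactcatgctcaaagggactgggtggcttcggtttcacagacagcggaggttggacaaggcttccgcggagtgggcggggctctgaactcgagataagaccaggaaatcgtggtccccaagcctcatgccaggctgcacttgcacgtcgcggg
Pdcd1lg2: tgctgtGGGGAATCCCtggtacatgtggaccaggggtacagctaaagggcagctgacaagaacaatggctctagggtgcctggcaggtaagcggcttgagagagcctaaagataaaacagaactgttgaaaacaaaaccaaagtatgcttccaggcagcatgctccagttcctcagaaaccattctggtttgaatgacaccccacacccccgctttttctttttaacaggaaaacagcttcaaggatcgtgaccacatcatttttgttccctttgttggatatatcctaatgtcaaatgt
Lgals9: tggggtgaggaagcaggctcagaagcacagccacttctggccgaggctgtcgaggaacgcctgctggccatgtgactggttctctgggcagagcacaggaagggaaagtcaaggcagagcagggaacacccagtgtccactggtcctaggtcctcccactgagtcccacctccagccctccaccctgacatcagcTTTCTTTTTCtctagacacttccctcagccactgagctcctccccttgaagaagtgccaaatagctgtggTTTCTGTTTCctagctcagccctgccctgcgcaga
The motifs were GAAANNGAAA, the core of the interferon-stimulated response element, TTCNNNGAA, the core of the gamma-activated sequence of interferon gamma targets, and the NF-kB consensus. Of 32851 promoter windows of this length, 3.44% held the first, 8.3% the second and 8.46% the third. The Lgals9 window holds the first motif on the other strand, so that its reverse complement is what is printed, at positions -55 to -46 and again at 16 to 25, counted from the start with no position 0. The Pdcd1lg2 window holds the NF-kB consensus on both strands of the same bases, at -244 to -235, and the Cd274 window holds no match to any of the 3. RefSeq windows were matched for 8 of the 10 genes, not for Cd86 and Cd40, and 4 of the 8 had a match; the others were Icosl, with the NF-kB consensus at -111 to -102, and Tnfrsf14, with the first motif at -64 to -55. A match describes the letters in the window, not a bound site.

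Cd276 (B7-H3; chr9:58524300-58555132, minus strand) varied little. It had 966.4, 1016.1 and 831.1 normalized counts at 11 weeks, against 900.6, 1084.8 and 1136.8 normalized counts at 8 weeks. The highest value was no more than 1.37-fold the lowest, and the log2 fold change was -0.15 (SE 0.30; limma, adjusted p = 0.907). Cd274, Pdcd1lg2 and Cd276 each overlap an annotated gene on the other strand, and nothing says that the counting was by strand, so the reads of such partners cannot be told apart.

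CD40 is the receptor through which helper T cells license antigen-presenting cells. Cd40 (chr2:165055627-165072948, plus strand) had 692.4, 1119.0 and 1209.1 normalized counts at 11 weeks, against 995.1, 423.9 and 862.6 normalized counts at 8 weeks. Its mean normalized count was 1007 ± 276 at 11 weeks, against 760.5 ± 299 at 8 weeks (SD, n = 3 each), and 11-week replicate 1 lay below 2 of the 8-week libraries. The log2 fold change of 0.45 (SE 0.39) did not pass (limma, adjusted p = 0.805), and it was 0.079 without 8-week replicate 2, the lowest library. Of 16 genes of CD40 signalling and NF-kB, 0 passed, 6 had a log2 fold change above 0 and 10 below, and the median was -0.10. Those with the smallest p were Traf3, a restraint on the non-canonical NF-kB branch (1302 normalized counts at 11 weeks and 836.9 at 8 weeks; limma, adjusted p = 0.661), Birc3, a ubiquitin ligase that acts with TRAF proteins (7028 at 11 weeks and 8874 at 8 weeks; adjusted p = 0.709 by limma), and Tnfaip3, a feedback inhibitor of NF-kB (24326 at 11 weeks and 28982 at 8 weeks; adjusted p = 0.783 by limma). Cd40lg, the ligand, had a read in 1 library of each age, with 8.1 normalized counts at 11 weeks and 4.5 at 8 weeks.

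Tnfrsf14 (HVEM; chr4:154922210-154928563, minus strand) varied widely, and within 11 weeks more than any other of the 10. It had 7, 70 and 772 reads at 11 weeks, which are 6.4, 70.6 and 699.7 normalized counts, against 117, 159 and 303 reads at 8 weeks, which are 104.3, 220.3 and 258.8 normalized counts. Within 11 weeks the highest value was 109.3-fold the lowest, and the 8-week values all fell inside that span. The direction depended on the scale: the mean normalized count was 258.9 ± 383.1 at 11 weeks, against 194.5 ± 80.4 at 8 weeks (SD, n = 3 each), while the log2 fold change was -1.34 (SE 1.18; limma, adjusted p = 0.809). The log2 fold change was 0.30 without 11-week replicate 1 and -2.99 without 11-week replicate 3, and edgeR and DESeq2 gave 0.40 and 0.41. The same 11-week replicate 3 had the highest summed level of 9 B cell markers, with 265.8, 13.1 and 585.6 normalized counts in the 11-week libraries and 327.3, 95.6 and 27.4 in the 8-week libraries. Of these markers 8 of 9 could be tested and 0 passed, and Blk was at 0 in 5 of 6 libraries. The sum of 12 mammary epithelial markers was 42560 normalized counts in that library and nearly as high, 41179, in 11-week replicate 1, which had the lowest Tnfrsf14 value. Most of each sum was the casein gene Csn3, with 27046.4 in 11-week replicate 3 and 32482.5 in 11-week replicate 1. Wfdc18 (9769.5 against 4232.4), Epcam (1370.4 against 656.5) and Krt18 (1413.9 against 860.6) were higher in 11-week replicate 3. So were Krt8, Krt14, Krt5, Cdh1 and Cldn3. Krt19 (322.7 against 649.2), Cldn4 (362.5 against 430.3) and Elf5 (448.6 against 671.2) were, like Csn3, higher in 11-week replicate 1. The part of B cell or epithelial RNA in the Tnfrsf14 values was not tested.

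Havcr2 and Lgals9 gave the largest totals of reads. Havcr2 (TIM-3; chr11:46454935-46481255, plus strand) had 11131, 16179 and 7891 normalized counts at 11 weeks, against 9970, 14871 and 7263 normalized counts at 8 weeks. Replicate 2 was the highest and replicate 3 the lowest at both ages, although the numbers were not taken as pairs. The differences among libraries of one age were larger than that between the ages, for which the log2 fold change was 0.13 (SE 0.27; adjusted p = 0.906 by limma).

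Lgals9 (galectin-9; chr11:78962974-78984946, minus strand) came nearest to passing. It had 15937, 13188 and 9546 normalized counts at 11 weeks, against 9006, 11005 and 9650 normalized counts at 8 weeks. The upper 2 of the 11-week libraries lay above all 8-week libraries, and the third lay within them. The log2 fold change was 0.36 (SE 0.20), with an interval from -0.07 to 0.78, an unadjusted p of 0.095 and an adjusted p of 0.70 by limma; the authors' deposited table gives 0.35 with an adjusted p of 0.562. The log2 ratio of Havcr2 to Lgals9 per kb averaged -0.51 ± 0.42 at 11 weeks and -0.29 ± 0.43 at 8 weeks (SD, n = 3 each; two-sided exact permutation p = 0.6, adjusted 0.6 over the 3 ratios).

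**Figure D4:**
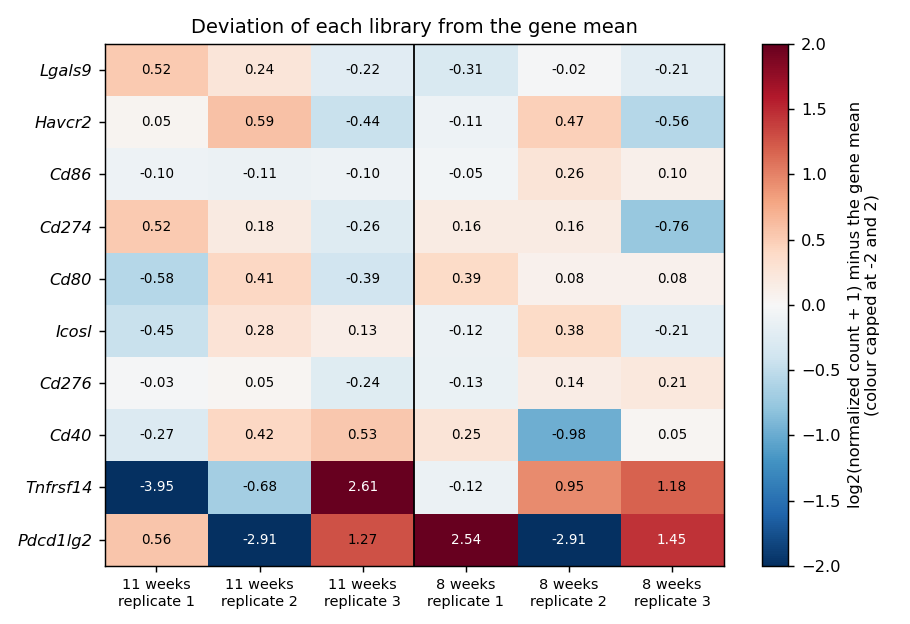
Deviation of each library from the gene's own mean, on log2(normalized count + 1), for the 10 genes, with 11-week libraries left of 8-week libraries and the colour capped at 2 either way. No column is of one colour: 11-week replicate 1 is high for Lgals9 and Cd274 (0.52 each) and low for Cd80 (-0.58) and Icosl (-0.45).

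The 10 genes did not move together from library to library. In 11-week replicate 1, 2 of them had their highest value and 3 their lowest. Lgals9 and Cd274 were the pair highest there. Irf7, an interferon-induced factor picked out after its values were seen, had 3328, 765.1 and 715.1 normalized counts at 11 weeks, against 687.5, 1532.2 and 682.4 at 8 weeks, so it too was highest in that library (log2 fold change 0.45, and -0.28 without it). A link between these levels was not tested. Of 20 genes of the interferon gamma pathway and PD-L1 control, 0 passed, 9 had a log2 fold change above 0 and 11 below, and the median was -0.04. Ifngr1, a chain of the interferon gamma receptor, had 4929 normalized counts at 11 weeks and 7705 at 8 weeks (log2 fold change -0.66; limma, adjusted p = 0.460), and Irf1, a factor induced by interferon gamma, had 2215 at 11 weeks and 3385 at 8 weeks (log2 fold change -0.63; limma, adjusted p = 0.533). Socs1, a feedback inhibitor of the pathway, had 40.1 normalized counts at 11 weeks and 3.47 at 8 weeks, and these values did not pass either (limma, adjusted p = 0.492).

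**Figure D5:**
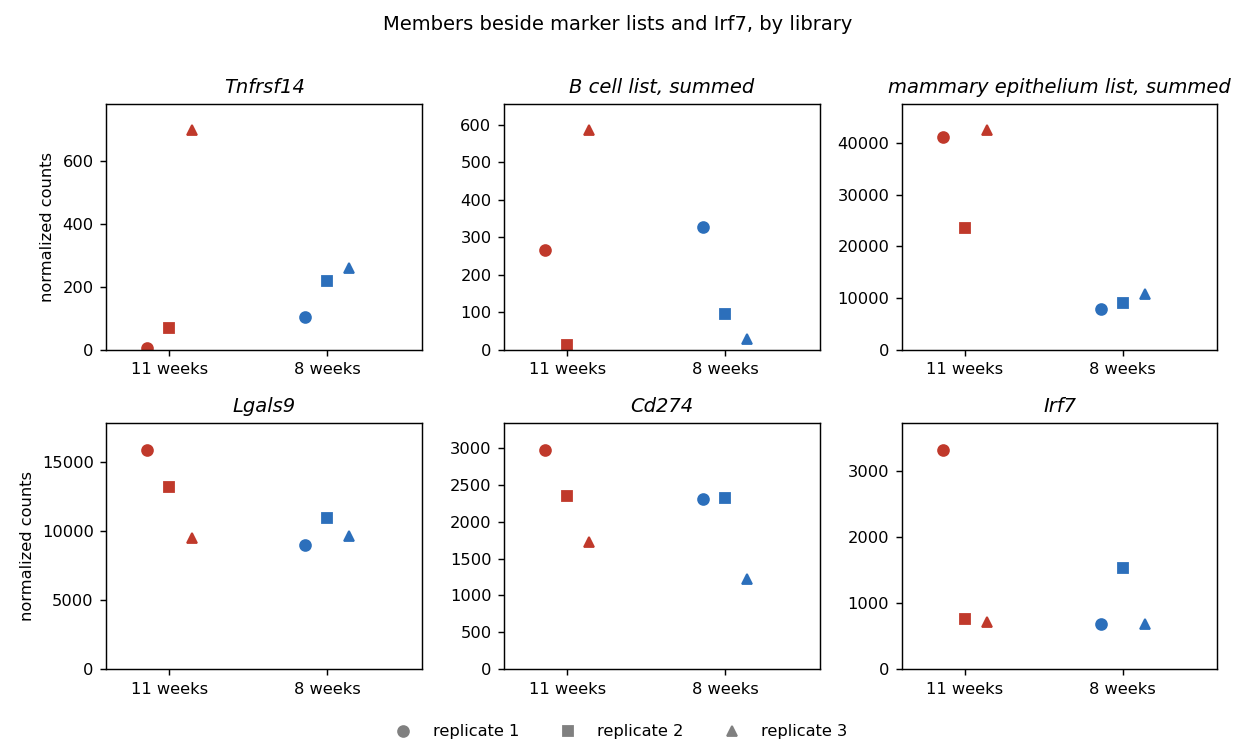
Normalized counts by library of Tnfrsf14 beside the summed B cell and mammary epithelial marker lists, and of Lgals9 and Cd274 beside Irf7, 11 weeks in red left of 8 weeks in blue. Tnfrsf14 and the B cell list peak in 11-week replicate 3, at 699.7 and 585.6, and Lgals9, Cd274 and Irf7 peak in 11-week replicate 1.

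Of 17 genes of T cell receptors and ligands that pair with these molecules or with others of their families, 0 passed, 10 had a log2 fold change above 0 and 7 below, with a median of 0.24. Cd226, an activating receptor that binds Pvr and nectins, had 524.1, 249.0 and 786.7 normalized counts at 11 weeks, against 989.7, 1000.2 and 985.6 normalized counts at 8 weeks. The 11-week libraries were all lower and the 8-week libraries nearly equal to each other, yet the log2 fold change of -1.08 did not pass (limma, adjusted p = 0.502). Cd160, a partner of HVEM, had 130.2 normalized counts at 11 weeks and 266.0 at 8 weeks (limma, adjusted p = 0.722), and Tnfrsf18, which encodes GITR, had 97.6 at 11 weeks and 36.2 at 8 weeks (limma, adjusted p = 0.646). Pdcd1, which encodes PD-1 and is named outside the rule, had 31.3 normalized counts at 11 weeks and 20.3 at 8 weeks.

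Of 26 other costimulatory and checkpoint surface genes 25 were tested and 0 passed, with 16 above 0, 9 below and a median log2 fold change of 0.13; Cd70 was without a read in every library. Tnfsf8, the CD30 ligand, had 215.2, 376.0 and 129.6 normalized counts at 11 weeks, against 79.4, 12.5 and 2.6 normalized counts at 8 weeks. These values do not overlap, but the log2 fold change of 3.80 (SE 1.10) did not pass (adjusted p = 0.310 by limma). Ildr2, an immunoglobulin-domain protein described as an inhibitor of T cells, had 264.5 normalized counts at 11 weeks and 56.0 at 8 weeks (limma, adjusted p = 0.343). Timd2, a TIM-family gene related to Havcr2, had 54.4 at 11 weeks and 4.90 at 8 weeks (limma, adjusted p = 0.499).

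The libraries held 38784434 to 75004875 recovered reads, and 17385 to 19722 genes had a read. Mitochondrial ribosomal RNA made up 44.21% to 48.58% of the normalized total at 11 weeks. At 8 weeks it made up 35.2% in replicate 1, 44.44% in replicate 2 and 51.81% in replicate 3. All 13 macrophage identity genes had reads in every library, and 0 of 13 passed. Their summed levels were 861587 to 975467 normalized counts at 11 weeks and 820663 to 1028130 at 8 weeks. Lyz2 was the largest part of each sum, with 441201 to 540158 at 11 weeks and 411885 to 623180 at 8 weeks. All 11-week values lay above all 8-week values for 4 of the 13, where 6.81% of all genes did so. They lay below for 1, where 5.12% of all genes did so. Of the genes encoding the sort antigens, H2-Ab1, an MHC class II chain, fell by 0.84 on the log2 scale at 11 weeks (limma, adjusted p = 0.0127; 0.177 to 0.370 when any 1 library was left out), Cd14 had a log2 fold change of 0.63 (adjusted p = 0.198 by limma) and Ptprc, the gene of CD45, one of -0.42 (adjusted p = 0.434 by limma). Of 12 mammary epithelial markers 1 passed, the casein gene Csn3, which was higher at 11 weeks (limma, adjusted p = 0.000888; 0.0648 to 0.208 without 11-week replicate 1 or 3 or 8-week replicate 1 or 2), and the list summed to 23553 to 42560 normalized counts at 11 weeks and 7834 to 10742 at 8 weeks. Markers of mature dendritic cells, which carry CD80, CD86, CD40 and PD-L1, summed to 2996 to 4554 normalized counts at 11 weeks and 1046 to 2524 at 8 weeks. Of these 10 markers 0 were called, 7 had a log2 fold change above 0 and 3 below, and Lamp3 was at 0 in 5 of 6 libraries. Ccl22, a chemokine and the largest member of that list at 11 weeks, had 1540 normalized counts at 11 weeks and 476.4 at 8 weeks (limma, adjusted p = 0.213). It was the only member of the list whose values did not overlap between the ages. Fscn1 went the other way, with 37.6 normalized counts at 11 weeks and 134.3 at 8 weeks. T cell markers summed to 2566 to 3995 normalized counts at 11 weeks and 4099 to 5116 at 8 weeks, a sum made up mostly of Cd4; without Cd4 the other 9 summed to 921.4 to 1836 at 11 weeks and 1176 to 2046 at 8 weeks, and the ages overlapped. Of the 10 T cell markers 0 passed, and 5 had a log2 fold change above 0 and 5 below, with a median of 0.63. Cd3e had 231.2 normalized counts at 11 weeks and 46.3 at 8 weeks (limma, adjusted p = 0.389). Cd2, with the highest mean of the other 9 at each age, had 732.8 at 11 weeks and 1315 at 8 weeks (limma, adjusted p = 0.618). Neutrophil markers summed to 4408 to 6507 normalized counts at 11 weeks and 1714 to 4241 at 8 weeks. Endothelial markers summed to 635.1 to 1125 at 11 weeks and 344.1 to 444.7 at 8 weeks, so that neither sum overlapped between the ages. The members differed: of the neutrophil markers tested 6 had a log2 fold change above 0 and 1 below, and of the endothelial markers 5 above and 3 below. All 11-week values lay above all 8-week values for 4 of the neutrophil markers, where 6.81% of all genes did so, and below for 0. Of the endothelial markers 1 lay wholly above and 1 wholly below. S100a9 had 1255 normalized counts at 11 weeks and 95.3 at 8 weeks, while Csf3r had 2490 and 2424. Cdh5 had 327.4 at 11 weeks and 37.1 at 8 weeks, while Tek had 3.03 and 24.7. All 8 fibroblast markers had a log2 fold change above 0 (median 1.32), with sums of 1673 to 4028 normalized counts at 11 weeks and 797.8 to 1683 at 8 weeks. Conventional dendritic cell markers summed to 33287 to 74630 at 11 weeks and 27547 to 61778 at 8 weeks, mostly from Clec10a. Clec10a alone had 65323.6, 25149.7 and 45530.5 normalized counts at 11 weeks, against 18090.4, 37432.9 and 49140.5 at 8 weeks. Of the 11 dendritic cell markers, 5 had a log2 fold change above 0 and 6 below. For 4 of the 11, all 11-week values lay below all 8-week values, where 5.12% of all genes did so, and for 0 they lay above. Of these 4 lists 0 genes passed, of 7 neutrophil, 8 endothelial, 8 fibroblast and 11 dendritic cell markers tested. The part of these other cells in the levels of the 10 genes was not tested.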

How the data were processed

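The deposited table gives 1 signal value per gene and library, made by dividing each library's counts by its own size factor, and the authors' log2 fold change, fold ratio, p-value and adjusted p-value. STAR 2.4, DESeq2 1.6 and GRCm38 appear in the submitters' processing notes; how reads were counted is not given there. From the deposited signal values, whole reads were recovered for 99.92% to 99.97% of values (within 0.05 normalized counts). The main test was limma 3.58.1 (R 4.3.3; trend, robust) on log2(normalized count + 1), with age as the only term, for the 21675 genes averaging 1 normalized count or more at either age, adjusted by Benjamini and Hochberg at 0.05. edgeR 4.0.16, DESeq2 1.42.0, voom, other scalings, pseudocounts, filters, a replicate block and leaving out each library were alternatives. The labels do not say whether the replicate numbers pair the libraries. Those with the same number did not deviate together, and the numbers were not taken as pairs.

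Levels per kb used the GENCODE M21 exon union of GRCm38. Ratios were tested by exact permutation (scipy 1.17.1). Named genes were all 10, up to 3 per list by smallest p, and called list genes. Cd40lg, Pdcd1, Irf7, Cd70, Blk, Lamp3, Cd4, Clec10a, Csf3r, Lyz2, Epcam, Krt18, Krt8, Krt14, Krt5, Cdh1, Cldn3, Cldn4 and Elf5 were named outside this rule. All 181 entries of the 14 lists matched, 6 of them by an older symbol. The rows were taken by symbol, but the genes and lists were chosen with earlier results of these data known. For low genes, fold changes on log2(value + 1) can be smaller or larger than those of a count model. Pdcd1lg2 had -0.72 with limma and -1.21 with edgeR, and Tnfrsf18 had 2.805 with limma and 1.41 with edgeR.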

Additional observations from a re-analysis of the deposited data

How the results depend on the processing

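Of the 10 genes, 0 were called under each of the 18 alternatives, which include leaving out each library. Of 179 values of these genes under alternatives, 168 kept their direction and 11 reversed, with 0.533 the lowest adjusted p. Tnfrsf14 reversed with edgeR (0.40), DESeq2 (0.41) and without 11-week replicate 1, and its values with 1 library left out ran from -2.99 to 0.30. Icosl reversed with upper-quartile scaling (0.024) and without 11-week replicate 1 or 8-week replicate 2, with a range of -0.17 to 0.19. Pdcd1lg2 reversed without 11-week replicate 2 or 8-week replicate 1 (range -2.36 to 0.56), Havcr2 without 11-week replicate 2 or 8-week replicate 3 (-0.13 to 0.40) and Cd274 without 8-week replicate 3 (-0.012 to 0.50). With 1 library left out, the difference in log2 ratio ran from -0.46 to 0.039 for Cd80 to Cd86, from -0.28 to 2.81 for Cd274 to Pdcd1lg2 and from -0.46 to -0.03 for Havcr2 to Lgals9. Of 18 of the other named genes, 1 value reversed, that of Irf7 without 11-week replicate 1 (range with 1 library left out -0.28 to 0.83). H2-Ab1 was not called with edgeR, library totals, a pseudocount of 8 or without robust moderation, and DESeq2 called Ildr2 and Cd14. The cause of these shifts was not tested.

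Over all genes limma called 11. DESeq2 called 422, limma-voom 26, scaling to library totals 4 and a pseudocount of 8 gave 5. With the replicate block 45 were called, 0 of them among the 10 genes. The correlations of the deviations of same-numbered libraries were -0.011, -0.0044 and -0.010, so these libraries did not deviate together. That cannot settle whether the numbers pair the samples, which the labels do not say. The counts with 1 library left out ran from 0 to 8: 0 without 11-week replicate 1 or 3 or 8-week replicate 1, 1 without 8-week replicate 2 or 3, and 8 without 11-week replicate 2. Pdcd1lg2 has no value under the filter at a mean of 100 normalized counts. Pdcd1lg2 rests on 0 to 48 reads per library and Tnfrsf14 on 7 to 772, and Cd40 was 0.079 without 8-week replicate 2.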
